A study of Homo sapiens with 5 samples.

Results

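E proteins and Id proteins form a small network of helix-loop-helix factors, and the chromatin around their genes was described here in the human cell lines RD and RH18. Both are established lines of rhabdomyosarcoma, a tumour of muscle-like cells, of the fusion-negative kind, which lacks the PAX and FOXO1 gene fusion. Members were all listed peaks that overlapped 6 fixed windows of the genome build hg19, 3 around the E protein genes TCF3, TCF4 and TCF12 and 3 around the inhibitor genes ID1, ID2 and ID3. The windows were chromosome 19 from 1560000 to 1700000 (TCF3), chromosome 18 from 52840000 to 53350000 (TCF4), chromosome 15 from 57160000 to 57630000 (TCF12), chromosome 20 from 30140000 to 30240000 (ID1), chromosome 2 from 8770000 to 8870000 (ID2) and chromosome 1 from 23830000 to 23940000 (ID3). They held 169 of the 100703 peaks in all 3 lists: 76 of 43159 regions of histone H3 acetylated at lysine 27 (H3K27ac) in RD, 68 of 46408 H3K27ac regions in RH18, and 25 of 11136 peaks of the transcription factor MYF5 in RH18. The study labels 5 samples, these 3 immunoprecipitations and an input of each line, and every group was 1 library. Both lines grew in DMEM with 10% fetal bovine serum, the labels name no drug or gene change, and fixation was with 1% formaldehyde for 12 minutes. With no replicate, differences between lines and between libraries cannot be told apart. MYF5 binding in RD and the inputs were not analysed here. Peaks described as at a gene are those in its window. A window may take in neighbouring genes, and peaks were not assigned to genes, since hg19 gene positions were not used.

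Myogenic factors such as MYF5 and MYOD bind DNA as dimers with an E protein, at a short motif called the E-box (CANNTG). Id proteins have the helix-loop-helix part but lack the basic part that touches DNA, so that an Id protein paired with an E protein keeps it from binding, and in muscle precursors high Id levels are known to hold back differentiation. H3K27ac marks active promoters and enhancers. TCF4 here is the E protein gene, and not the Wnt pathway gene TCF7L2, which shares that name in older texts. The peak lists report chromatin and not RNA, so levels of the 6 proteins were not measured.

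The promoters of the Id genes are shown because the Id windows held most of the MYF5 peaks and MYF5 binds E-boxes. The stretches below are the 250 bases before the annotated start, from RefSeq on GRCh38.p14, 5′ to 3′ on the strand of the gene, with every CANNTG in capitals. They lie at chr20:31605039-31605288 (plus strand, ID1), chr2:8681806-8682055 (plus strand, ID2), chr1:23559502-23559751 (minus strand, ID3) and chr6:19837120-19837369 (plus strand, ID4).
ID1: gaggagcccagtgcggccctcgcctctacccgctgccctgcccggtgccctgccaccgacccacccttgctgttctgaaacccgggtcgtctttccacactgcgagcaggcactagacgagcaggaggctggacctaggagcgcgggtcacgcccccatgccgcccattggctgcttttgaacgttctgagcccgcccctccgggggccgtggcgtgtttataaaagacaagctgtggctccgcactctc
ID2: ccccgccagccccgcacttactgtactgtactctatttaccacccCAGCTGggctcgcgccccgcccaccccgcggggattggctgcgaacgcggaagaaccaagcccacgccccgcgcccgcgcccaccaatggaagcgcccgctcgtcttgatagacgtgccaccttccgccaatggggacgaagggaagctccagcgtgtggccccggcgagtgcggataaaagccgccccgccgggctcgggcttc
ID3: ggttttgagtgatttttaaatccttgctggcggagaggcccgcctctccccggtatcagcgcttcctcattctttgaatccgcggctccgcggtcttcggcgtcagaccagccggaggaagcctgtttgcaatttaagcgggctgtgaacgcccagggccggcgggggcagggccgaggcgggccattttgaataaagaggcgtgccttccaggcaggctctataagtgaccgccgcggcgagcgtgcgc
ID4: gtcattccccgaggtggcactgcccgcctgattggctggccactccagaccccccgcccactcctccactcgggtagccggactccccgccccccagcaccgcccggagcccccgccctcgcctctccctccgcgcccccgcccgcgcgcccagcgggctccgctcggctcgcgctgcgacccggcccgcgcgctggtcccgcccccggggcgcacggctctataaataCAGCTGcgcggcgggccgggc
ID2 and ID4 each held 1 E-box, CAGCTG in both, starting 205 and 21 bases before the start, and the stretches of ID1 and ID3 held none. Over all 35116 RefSeq promoters of the same length, 61.8% held at least 1 CANNTG and 14.0% held CAGCTG. Of the 20 starts annotated for the 6 genes and ID4, 9 had a CANNTG. These were 5 of 10 at TCF4, 2 of 5 at TCF12 and the pair just named, while the TCF3 stretch had none. None of the 20 held CAGGTG or its reverse complement CACCTG, which 17.5% of all promoters did. CANNTG and CAGCTG read the same on both strands, and each CAGCTG is also a CANNTG. Such a match is a description of the letters. The peaks are on hg19 and these stretches on GRCh38, so peaks and promoters were not placed on each other.

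Each peak has a fold enrichment over local background, which is the authors' value. The number of sequenced tags (reads) at each summit and the local background were solved from its deposited fold together with its p-value. Whole-list medians were 85, 57 and 42 tags and folds of 8.0, 14.0 and 11.2 in RD H3K27ac, RH18 H3K27ac and MYF5. Tags had unequal worth in the lists (0.273, 0.832 and 0.658 pileup units), so a fold was placed only within its own list, as the percentage of that list with a lower fold, here called its percentile. The lists also ended at unequal −log10 p-values (5.00 for RD, 7.09 for RH18 acetylation, 9.09 for MYF5), so a region missing from a list may have missed an unequal threshold. Intervals below are exact 95% intervals of a share (Clopper-Pearson) and cover counting error only. They treat regions as independent, though neighbouring regions of a window may be pieces of the same stretch, so they may be too narrow.

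Taken as groups, the Id windows held more peaks per 100 kb than the E protein windows in all 3 lists, but in RD this order did not hold window by window. The E protein windows together held more regions in RD than in RH18, but the RD regions covered fewer bases (15660 against 16968). In RD, 38 H3K27ac regions lay in the 1120 kb of E protein windows and 38 in the 310 kb of Id windows, or 3.39 and 12.3 per 100 kb. The RD value for Id genes rested on ID3, which held 25 of the 38 regions (22.7 per 100 kb), and was 6.50 without it. TCF3, with 9.29 per 100 kb in RD, was above ID2 (4.0) and level with ID1 (9.0), while TCF4 and TCF12 had 2.75 and 2.34. In RH18 the E protein windows held 18 regions and the Id windows 50, or 1.61 and 16.1 per 100 kb, and 13.0 without ID3. In RH18 the windows of ID1, ID2 and ID3 (10.0 to 21.8) were each above each E protein window (0.851 to 6.43). That of ID4 (4.0), which is outside the 6 windows and described below, was under TCF3. MYF5 had 6 peaks in the E protein windows and 19 in the Id windows, or 0.536 and 6.13 per 100 kb. The same densities over the whole lists, between the first and last listed peak of each chromosome, were 1.47, 1.58 and 0.379. The bounds of the windows set these values: those of TCF4 and TCF12 span long genes, and the Id genes are short. Between the lines the counts differed by gene. RD had more listed regions than RH18 in each E protein window (13 against 9, 14 against 5, 11 against 4) and fewer at ID1 (9 against 16) and ID2 (4 against 10). At ID3 the lists were level, with 25 regions in RD and 24 in RH18. Counts and covered bases did not always go together, since RD regions of the E protein windows were narrower (median 308 bp against 550 bp). RH18 covered more bases than RD at TCF3 (10731 against 6922) and TCF12 (3896 against 3485), and fewer at TCF4 (2341 against 5253). With 1 library per line these differences have no replicate check. Without peaks whose background was at least 4 times the lowest of their list, a setting chosen after seeing the data, the RD count fell by over 1.5 times to 48 regions, 24 in each group of windows. At TCF3 this setting turned the order of the lines by count, since it removed 10 of 13 RD regions and 1 of 9 in RH18.

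**Figure D1:**
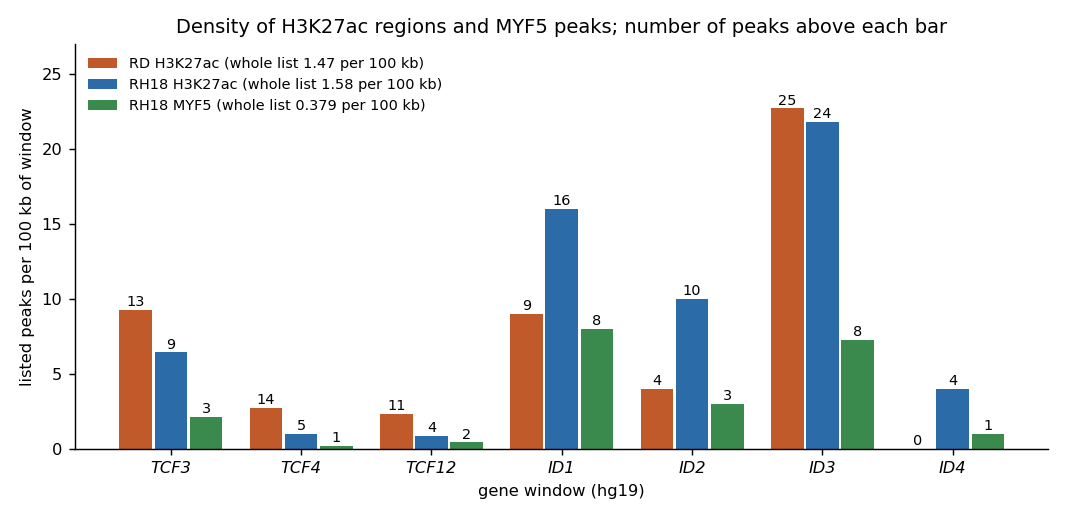
Listed peaks per 100 kb of each window (y axis) for the 7 gene windows (x axis) and 3 lists (bars), with the number of peaks above each bar; each bar is 1 library and has no replicate error. The ID3 window is the densest in H3K27ac at 22.7 (RD) and 21.8 (RH18) per 100 kb, ID1 is the densest in MYF5 with 8 peaks in 100 kb, and TCF4 and TCF12 are the sparsest in RH18.

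At TCF3, which encodes the E protein best known as partner of MYOD in muscle, most regions of either line touched one of the other, and fewer matched in extent. Of 13 RD regions, 12 overlapped an RH18 region by at least 1 bp, against 60.0% of the whole RD list, and of 9 RH18 regions, 8 overlapped an RD region, against 45.1%. Only 3 of the 13 and 3 of the 9 overlapped over 50% of both regions. Of the bases covered in either line, 49.0% were covered in both. The 3 RH18 regions of highest fold were at 1652608 to 1653583 (fold 58.1, percentile 95.6, 278 tags), 1565889 to 1567659 (fold 54.5, percentile 94.7, 280 tags) and 1590710 to 1592711 (fold 42.1, percentile 89.6, 255 tags). The widest RH18 region, 2044 bp from 1650220 to 1652263, lay just before the first of these and had 115 tags. In RD the highest was at 1652675 to 1652927 (fold 13.4, percentile 82.1, 242 tags), inside the highest of RH18. The next RD regions, at 1667972 to 1669060 (fold 12.1, 153 tags) and 1605658 to 1606533 (fold 11.9, 149 tags), overlapped RH18 regions of percentile 14.1 and 81.2. The widest RD region ran over 1138 bp from 1591214 to 1592351. MYF5 peaks of the window were low in their list, and all 3 summits lay inside RH18 acetylation, as did 55.2% of the whole list. They were at 1566785 to 1566974 (fold 7.77, 41 tags), 1592993 to 1593167 (fold 5.54, 49 tags) and 1653074 to 1653265 (fold 7.63, 44 tags), at percentiles 14.8, 3.27 and 13.8. Local background at these 3 peaks was raised to 2.53, 4.87 and 2.85 times the list's lowest, and its part in the low folds was not tested. The nearest genes of TCF3 in RefSeq order are UQCR11 and MBD3 on one side and ONECUT3 on the other, and hg19 gene positions were not used here, so regions of this window were not assigned to a gene.

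TCF4, an E protein gene with many alternative starts, had more listed regions in RD than in RH18. RH18 had 5 regions and each overlapped an RD region, against 45.1% of the RH18 list. Of the 14 RD regions, 5 overlapped an RH18 region, against 60.0% of the RD list, and 9 had no RH18 counterpart. The 5 RH18 regions formed a pair and a group of 3. The pair was at 52988938 to 52989412 (fold 32.0, percentile 82.1, 88 tags) and 52989668 to 52990126 (fold 26.1, percentile 75.7, 187 tags). The group was at 53254729 to 53255036 (fold 11.6, 31 tags), 53255275 to 53255796 (fold 30.6, 84 tags) and 53257109 to 53257685 (fold 22.0, 131 tags). RD was acetylated at the same 5 places, with 74 to 171 tags. The remaining RD regions lay before, between and beside these, with 37 to 117 tags, and their nearest RH18 regions were 1240 to 125348 bp away. The highest fold of the RD window was one of them, 840 bp at 53068646 to 53069485 (fold 20.1, percentile 94.2, 117 tags), with 78520 bp to the nearest RH18 region. It was also the widest RD region of the window. Next came 52988695 to 52989322 (fold 16.7, percentile 89.7) and 53253124 to 53253489 (fold 16.3, percentile 89.1). The only MYF5 peak of the window, at 53069182 to 53069377 (fold 9.25, percentile 29.6, 27 tags), had its summit inside that highest RD region and 79207 bp from RH18 acetylation. MYF5 was thus listed in RH18 at a place with acetylation listed in RD alone.

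TCF12, an E protein gene of broad expression, had 11 RD and 4 RH18 regions. Of these, 7 and 3 overlapped the other line, against 60.0 and 45.1% of the whole lists. RH18 had its highest region at 57179072 to 57180030 (fold 57.1, percentile 95.4, 158 tags) and its widest, of 2272 bp, at 57209978 to 57212249 (fold 24.9, percentile 74.1, 178 tags). RD broke these same stretches into 2 and 4 regions, with 55 and 97 tags in the first and 85 to 118 in the second. The other RH18 regions were at 57511898 to 57512129 (fold 6.28, 29 tags), shared with RD, and 57598474 to 57598906 (fold 10.6, 37 tags), 17181 bp from the nearest RD region. The highest RD folds were 14.3 at 57210873 to 57211111 (percentile 84.5, 118 tags), 10.1 at 57404333 to 57404568 (percentile 67.1, 57 tags) and 9.15 at 57179075 to 57179346 (percentile 60.6, 97 tags). The second of these was one of 4 RD regions without an RH18 counterpart. The widest in RD, of 623 bp, was at 57210016 to 57210638. MYF5 had 2 peaks here. One, at 57179531 to 57179776 (fold 10.6, percentile 44.0, 31 tags), lay inside the highest RH18 region and between the RD pair. The other, at 57537322 to 57537593, was the highest MYF5 peak of all 6 windows (fold 32.3, percentile 97.0, 98 tags). It lay in no listed H3K27ac region, 25321 bp from the nearest in RH18 and 1706 bp from the nearest in RD, and was the only 1 of the 25 MYF5 summits outside regions of both lines.

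**Figure D2:**
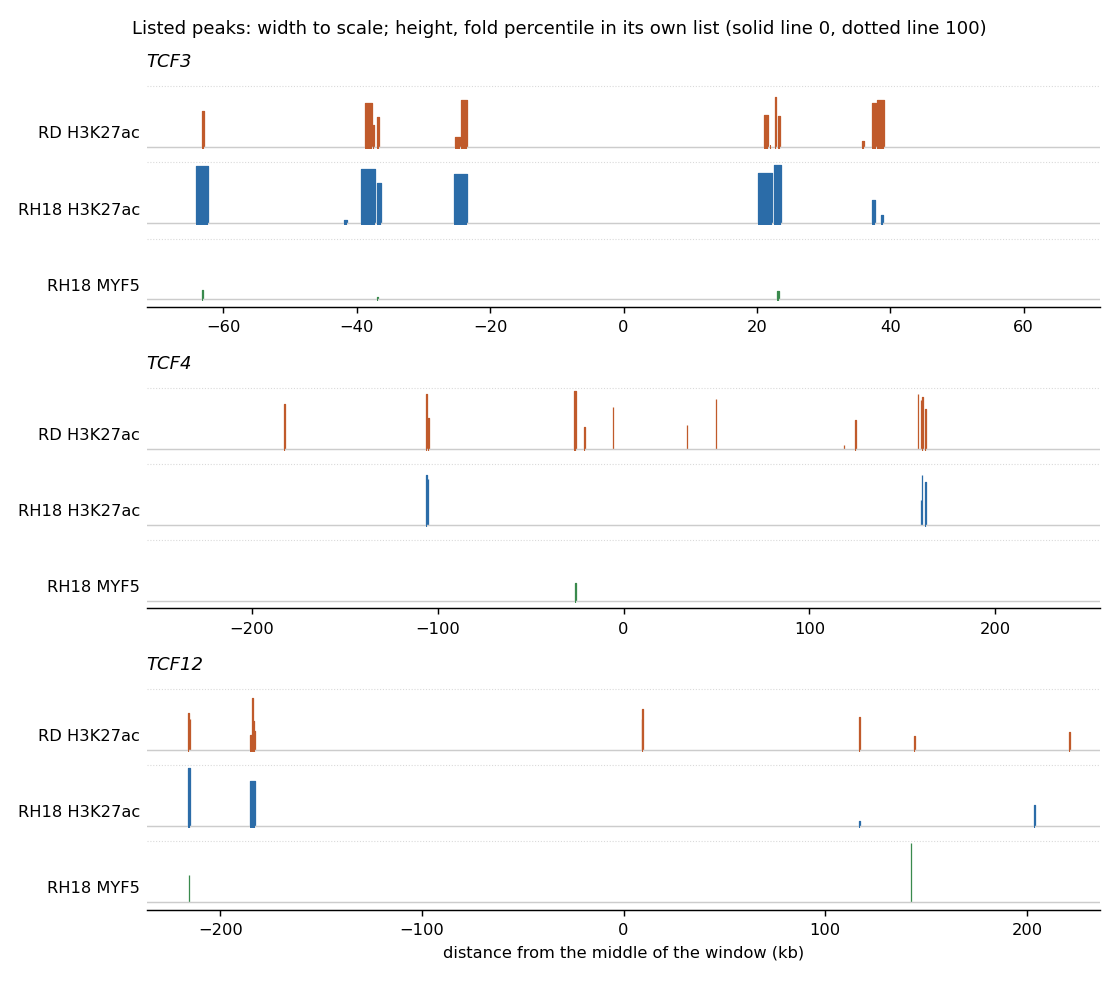
Listed peaks in the windows of TCF3, TCF4 and TCF12, with distance from the middle of the window in kb (x axis), 1 row per list, bar width to scale and bar height as the fold percentile within that list from 0 (solid line) to 100 (dotted line). TCF3 shows regions of both lines at most of the same places (12 of 13 in RD and 8 of 9 in RH18 overlap), TCF4 shows 9 RD regions with nothing beneath them in RH18, and TCF12 shows a tall MYF5 peak (percentile 97.0) away from acetylation.

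ID1, a target of bone morphogenetic protein signalling in many tissues, had more listed regions, and more covered bases, in RH18 than in RD. RH18 had 16 regions covering 14.8% of the window, and RD had 9 covering 3.80%. Of the 9 RD regions, 8 overlapped an RH18 region (interval 51.8 to 99.7%), against 60.0% of the list. Of the 16 RH18 regions, 4 overlapped an RD region (interval 7.27 to 52.4%), against 45.1% of the list, and 12 did not. The RH18 regions of highest fold were at 30159503 to 30161752 (fold 50.5, percentile 93.3, 332 tags), 30139320 to 30140479 (fold 36.1, percentile 85.4, 167 tags) and 30190993 to 30194235 (fold 32.4, percentile 82.5, 226 tags), the last being the widest at 3243 bp. RD had its 3 highest in the first pair of these places, at 30139592 to 30140384 (fold 21.2, percentile 95.2, 163 tags), 30160132 to 30160989 (fold 15.2, percentile 86.9, 194 tags) and 30161219 to 30161800 (fold 10.8, percentile 71.5, 141 tags). The second was also the widest in RD (858 bp). In the 3243 bp region of RH18, RD listed 3 short regions of 194 to 515 bp. They rested on 101 to 189 tags, above the RD median of 85, but the local background there was 7.54 to 17.2 times the lowest of the list. Their folds were 2.54 to 9.04, and 2 of the 3 stood under percentile 1. In RH18 the background at the 3243 bp region was 3.67 times the lowest of its own list. The part of background in the smaller RD coverage was not tested.

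MYF5 had 8 peaks in the ID1 window, all with summits inside RH18 acetylation, against 55.2% of the whole list. The 5 of highest fold were at 30192653 to 30193284 (fold 10.5, 126 tags), 30160077 to 30160960 (fold 10.5, 70 tags), 30192088 to 30192352 (fold 8.75, 65 tags), 30194778 to 30195512 (fold 8.17, 53 tags) and 30158254 to 30158624 (fold 7.18, 37 tags). All 8 folds were under the list median of 11.2, yet 4 of the 8 rested on more tags than the list median of 42. The peak of 126 tags stood at percentile 43.5 by fold and 96.8 by tags. Background under the 8 peaks was 2.40 to 6.82 times the lowest, against a whole-list median of 1.27. In 7 of the 8 cases the summit lay in no RD region. The other 1 of 8 has an interval of 0.316 to 52.7%, which spans the 39.9% of the whole list inside RD regions. The genes next to ID1 in RefSeq order are MCTS2 and COX4I2, and peaks of this window were not assigned to a gene.

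ID2, whose product is known to restrain differentiation in many lineages, had the H3K27ac region of highest percentile in the 6 windows. RH18 had 10 regions and RD had 4. Of these, 4 and 4 overlapped the other line, against 45.1 and 60.0% of the whole lists. All 4 RD regions lay inside RH18 regions and followed each other from 8818012 to 8821766. They were at 8818012 to 8818741 (fold 15.2, percentile 86.9, 108 tags), 8819164 to 8819757 (fold 11.8, percentile 76.2, 126 tags), 8820309 to 8820669 (fold 8.91, 61 tags) and 8821315 to 8821766 (fold 8.75, 63 tags). The RH18 regions over them included the 3 of highest fold. These were 8819119 to 8819835 (fold 85.3, percentile 99.2, 260 tags), 8817460 to 8818957 (fold 59.4, percentile 95.9, 213 tags) and 8820259 to 8820767 (fold 43.8, percentile 90.4, 121 tags). RH18 also had 3 regions at 8773100 to 8777789, with folds of 19.1 to 39.9 and 52 to 110 tags, at least 40223 bp from any RD region. The first of them was the widest of the window at 1927 bp. Background was low under the RH18 regions, at most 1.52 times the lowest of the list. Each of the 3 MYF5 summits lay inside an RH18 region, as did 55.2% of the whole list. The strongest peak, at 8822084 to 8822423 (fold 27.4, percentile 94.9, 83 tags), was 479 bp beyond the last RD region. The others, at 8774106 to 8774299 (fold 10.8, 32 tags) and 8818027 to 8818253 (fold 10.2, 30 tags), lay in the first of the 3 distant RH18 regions and in a region shared by both lines.

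ID3, like ID1 a known target of bone morphogenetic protein signalling, had similar acetylated coverage in both lines. RD covered 16.6% of the 110 kb and RH18 14.9%, and 42.6% of the bases covered in either line were covered in both. Of the 25 RD regions, 18 overlapped an RH18 region, against 60.0% of the list. Of the 24 RH18 regions, 16 overlapped an RD region, against 45.1% of the list. In RH18 the highest folds were at 23884480 to 23886541 (fold 65.0, percentile 97.1, 180 tags), 23879673 to 23882300 (fold 42.8, percentile 90.0, 256 tags) and 23907770 to 23908575 (fold 40.5, percentile 88.5, 170 tags). The second was the widest, at 2628 bp. In RD they were at 23903116 to 23903788 (fold 21.6, percentile 95.5, 158 tags), 23907920 to 23908552 (fold 18, percentile 91.9, 194 tags) and 23903934 to 23904427 (fold 16.1, percentile 88.7, 123 tags), and the widest ran over 3858 bp from 23851430 to 23855287. The leading RH18 region met 3 RD regions of 74 to 162 tags. Of these, 2 were among the lowest of the RD list by fold (3.53 and 3.60, percentiles 2.04 and 2.31), with background of 7.83 and 12.5 times the lowest. RD alone had 3 regions at the far end, from 23924113 to 23928171, with 35 to 81 tags and at least 11094 bp from RH18 acetylation.

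Of the 8 MYF5 peaks at ID3, 6 stood above the list median by fold, in contrast to ID1, and the background under them was at most 1.95 times the lowest. The 5 highest were at 23907707 to 23908073 (fold 20.1, percentile 88.0, 90 tags), 23855015 to 23855477 (percentile 88.0, 76 tags), 23851284 to 23851871 (fold 18.1, percentile 84.5, 59 tags), 23852369 to 23852607 (fold 17.2, percentile 82.4, 52 tags) and 23885795 to 23886475 (fold 13.3, percentile 66.8, 59 tags). The second and the fourth of these had summits outside RH18 regions, 53 and 438 bp away, and inside the 3858 bp region of RD. The genes next to ID3 in RefSeq order are E2F2 and RPL11, and peaks of this window were likewise not assigned to a gene.

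ID4, the remaining gene of the family, was examined in the same way on chromosome 6 from 19790000 to 19890000. No RD region was listed in that window or in 50 kb on either side, while RH18 had 4 regions and 1 MYF5 peak. A pair at 19804489 to 19805014 (fold 57.1, percentile 95.4, 204 tags) and 19805109 to 19805594 (percentile 95.5, 221 tags) stood far above a pair at 19836950 to 19837285 (fold 18, 49 tags) and 19837623 to 19837952 (fold 16.2, 44 tags). The nearest RD region was at least 375150 bp away. The MYF5 peak was at 19837549 to 19837814 (fold 16.4, percentile 80.1, 49 tags), with its summit inside the last RH18 region. Per 100 kb the ID4 window had 0 RD regions, 4.0 RH18 regions and 1.0 MYF5 peaks, below TCF3 in each list (9.29, 6.43 and 2.14). In RH18 regions and in MYF5 peaks it was above TCF4 and TCF12. A missing RD region means that none was listed, and depth at unlisted places is not in the files.

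**Figure D3:**
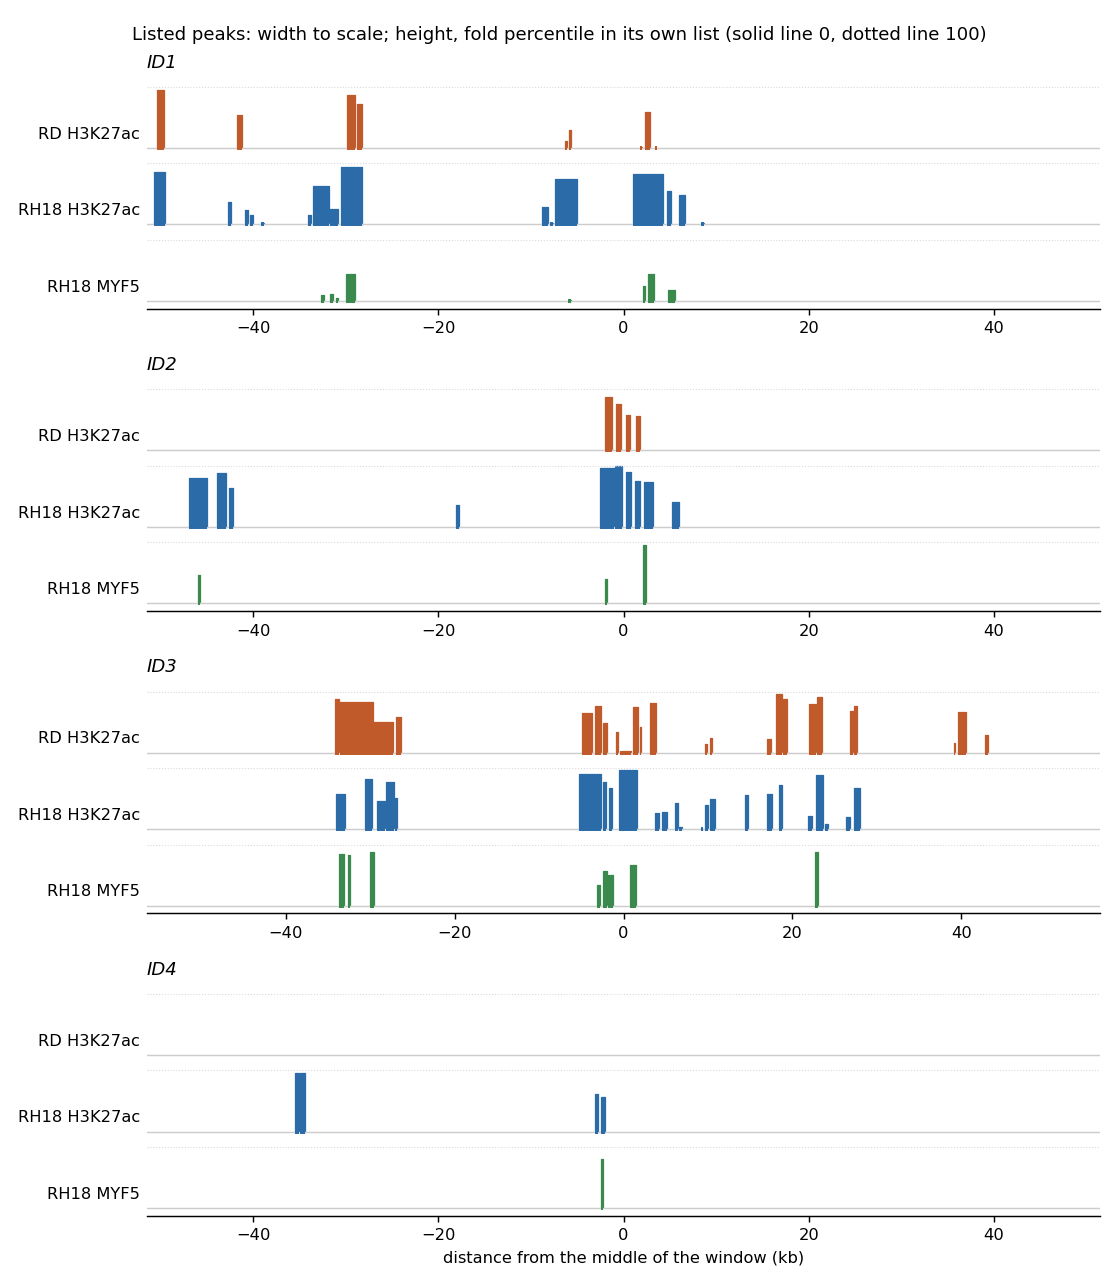
Listed peaks in the windows of ID1, ID2, ID3 and ID4, drawn as for the E protein genes, with distance from the middle of the window in kb (x axis) and fold percentile as bar height. RH18 rows hold more regions than RD rows at ID1 and ID2 (16 against 9 and 10 against 4), ID3 is dense in both lines, and the RD row of ID4 is empty.

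Regions of the windows were shared between the lines at 71.1% of those in RD (54 of 76, 59.5 to 80.9%) and 58.8% of those in RH18 (40 of 68, 46.2 to 70.6%), where the whole lists gave 60.0 and 45.1%. The whole-list share lay within the RD interval and just under the RH18 interval. Split by gene group, 88.9% of the RH18 regions at E protein genes were shared (16 of 18, 65.3 to 98.6%) and 48.0% of those at Id genes (24 of 50, 33.7 to 62.6%). In RD the order was the other way, with 63.2% at E protein genes (24 of 38, 46.0 to 78.2%) and 78.9% at Id genes (30 of 38, 62.7 to 90.4%), and these intervals overlapped. Shared regions were wider and had more tags in the windows as in the lists. In RH18 the medians were 697 bp and 116 tags for shared regions, against 398 bp and 50.5 tags for unshared ones, and over the whole list 692 bp and 95 tags against 376 bp and 42.0. In RD they were 480 bp and 114 tags against 268 bp and 58.5 tags. Counted in bases, 43.5% of what was covered in either line at E protein genes was covered in both, and 32.9% at Id genes, beside 30.7% over the lists. As a share of the RD bases this was 63.1% at E protein genes and 65.6% at Id genes, so the groups were nearly level. As a share of the RH18 bases it was 58.3 and 39.8%. The whole lists gave 59.6% in RD and 38.8% in RH18. Where the overlap had to span 50% of both regions, 17 regions of each line matched, or 22.4% in RD and 25.0% in RH18, beside 27.5 and 25.6% of the lists. Without raised background the shares fell in the windows and in the lists: 60.4% in RD (29 of 48) beside 46.1% of the list, and 44.3% in RH18 (27 of 61) beside 29.8%.

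**Figure D4:**
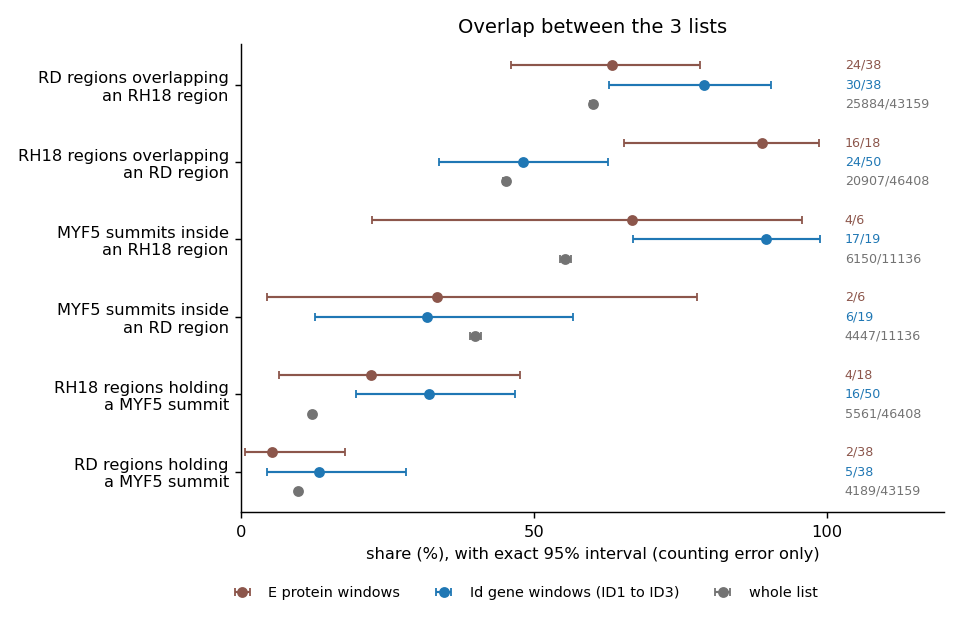
Share of regions or summits in percent (x axis) for 6 overlaps between the lists (y axis), in the E protein windows, in the Id windows and in the whole list, with exact 95% intervals as bars and the counts at the right. RH18 regions at E protein genes (16 of 18) and MYF5 summits at Id genes inside RH18 regions (17 of 19) stand to the right of the whole lists with their intervals, as do RD regions at Id genes (30 of 38) and RH18 regions at Id genes that hold a summit (16 of 50). The other intervals span the whole-list share. Neighbouring regions of a window are not independent, so the intervals may be too narrow, and no test was made.

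MYF5 summits of the windows lay mostly in acetylated chromatin of RH18, while their share inside RD regions was not distinguishable from that of the whole list. Inside RH18 regions were 21 of 25 (84.0%, 63.9 to 95.5%), against 55.2% of the whole list. Of the 4 outside, 2 were within 500 bp, giving 92.0% within that distance against 72.1% of the list. Inside RD regions were 8 of 25 (32.0%, 14.9 to 53.5%), against 39.9% of the list, and 5 of 25 summits (interval 6.83 to 40.7%) lay in regions of both lines, against 33.5%. RH18 regions alone held 16 of the 25, RD regions alone 3, and neither 1. The RD share depended on the measure, since 64.0% of the MYF5 peaks overlapped an RD region by any base (55.5% of the list) and 72.0% of the summits lay within 500 bp of one (62.9% of the list). Of the 25 summits, 9 (36%, 18 to 57.5%) fell between neighbouring RD regions, each at most 500 bp away, against 10.6% of the list. These were 3 at ID1, 3 at ID3, 2 at TCF3 and 1 at TCF12. At ID1, the peak of 126 tags had RD regions 294 bp before and 242 bp after its summit. Such a gap needs closely spaced RD regions, and these were denser in the windows (5.31 per 100 kb) than over the list (1.47). The share in gaps was not adjusted for this density. Between RH18 regions, 0 of the 25 summits sat in such a gap, which allows up to 13.7% by the exact interval and does not separate the windows from the list (4.81%).

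Seen from the acetylated regions, 20 of the 68 in RH18 (29.4%, 19 to 41.7%) held a MYF5 summit, against 12.0% of the list, and 7 of the 76 in RD (9.21%, 3.78 to 18.1%), against 9.71%. By gene group the RH18 shares were 22.2% at E protein genes (4 of 18) and 32.0% at Id genes (16 of 50), with intervals that overlapped (6.41 to 47.6% and 19.5 to 46.7%). Within 500 bp of a summit lay 34.2% of the RD regions, against 22.0% of the list, with 47.4% at Id genes (18 of 38, 31.0 to 64.2%) and 21.1% at E protein genes (8 of 38, 9.55 to 37.3%). RH18 regions with a summit had a median width of 1128 bp and 168 tags, and those without 461 bp and 51.5 tags. Over the whole list the values were 1091 bp and 151 tags, and 437 bp and 51.0 tags, so the windows showed the same order as the list. A wide region can hold more summits, and the shares were not adjusted for width.

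MYF5 peaks in the windows covered most of the range of their list by height. Fold ran from 4.89 at ID1 to 32.3 at TCF12, with a median percentile of 43.5, and tags from 27 at TCF4 to 126 at ID1, with a median of 44.0 beside 42 in the list. Peaks of low fold at TCF3 and ID1 lay on background of at least 2.40 times the lowest, and the peaks of all other windows on at most 1.95 times. Peaks under the list median of 11.2 were also found at backgrounds of 1.00 to 1.01. They had folds of 9.25 at TCF4, 10.6 at TCF12, 10.2 and 10.8 at ID2 and 9.58 at ID3. Fold is a ratio to this background, which was itself solved from fold and p-value, so fold and background are not independent.

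**Figure D5:**
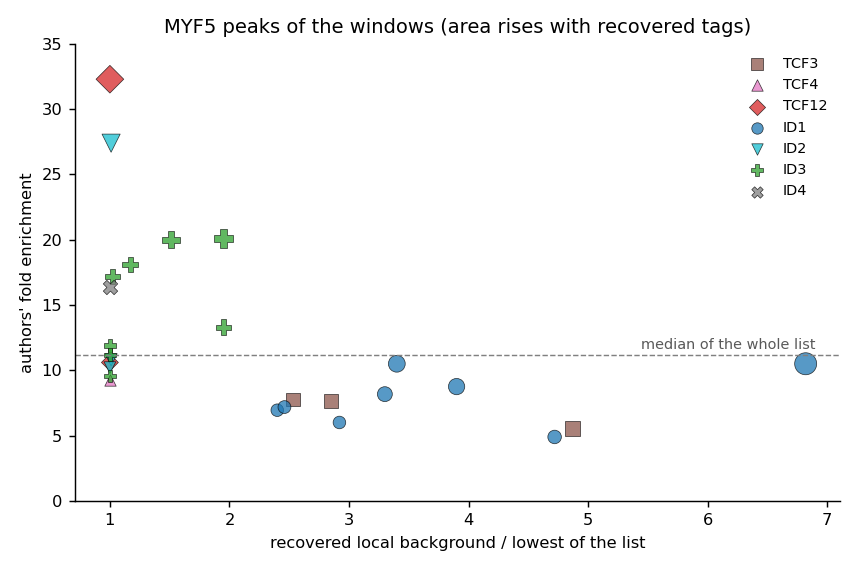
The 25 MYF5 peaks of the 6 windows and the 1 of ID4, with the recovered local background relative to the lowest of the list (x axis), the authors' fold enrichment (y axis), symbols by gene window and symbol area rising with recovered tags. The peaks of ID1 and TCF3 sit at backgrounds of 2.40 to 6.82 and under the list median of 11.2 (dashed line), and the highest folds, at TCF12 (32.3) and ID2 (27.4), sit at backgrounds of 1.00 and 1.01. Peaks under the median also sit at these low backgrounds, at TCF4, TCF12, ID2 and ID3. Background is the divisor of fold, so the axes are not independent.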

How the data were processed

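The analysis used 3 peak lists from chromatin immunoprecipitation with sequencing, 1 per library, as deposited by the authors. Per the submitters' processing notes, the tools were BWA 0.7.10 and MACS2 2.1.0 and the build was hg19. Roles, control and threshold are not given in the sources used here. Deposited by the authors, each peak carries a fold (ratio) of pileup against local background, −log10 p-values and −log10 q-values, a summit position and a score, which was not used. Tags and local background were recovered by solving the MACS2 formulas for fold and Poisson p-value, and each background was expressed relative to the list's lowest. Tags were whole within 0.1 for 100.0% of the peaks in each list, and 54.9, 14.0 and 30.5% of peaks in RD H3K27ac, RH18 H3K27ac and MYF5 had more than 1 solution, resolved by the nearest whole tag. The step was tested on simulated peaks written with the same formulas. That checks the solving alone, and not whether the deposited values follow the formulas.

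Peaks belonged to a window when they overlapped it by at least 1 bp. H3K27ac regions were shared when they overlapped by at least 1 bp, and MYF5 peaks were placed by summit. No test was made, since every group was 1 library. Shares carry exact Clopper-Pearson 95% intervals. Whole-list densities used 2940 Mb. Covered shares of a window were cut at its ends, and bases shared between lines were counted over whole regions. Named in the text were every MYF5 peak of a window with at most 6 (otherwise the 5 of highest fold), the 3 H3K27ac regions of highest fold and the widest of each line, and every region of a window with at most 5. Other regions in the text were picked with their values known. The windows, members and lists were chosen with earlier results of these data known. Alternatives covered the overlap rule, a −log10 q of at least 10, wider windows, windows left out and raised background. Other pathway genes, and E-boxes under the peaks, were not analysed here, since the gene table and promoter sequences used are on GRCh38. Software was scipy 1.17.1, numpy 2.4.6 and pandas 2.3.3 under Python 3.11.15, with figures from matplotlib 3.10.9.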

Additional observations from a re-analysis of the deposited data

How the results depend on the processing

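Of 63 alternatives run on 6 shares and 3 counts, 54 stayed within the interval of the share or within 1.5 times the count, and 9 moved. With an overlap of at least 50% of both regions, 22.4% of RD and 25.0% of RH18 regions were shared. The RH18 share was 88.9% in E protein windows alone and 44.3% without raised background, which leaves out regions of both lists. MYF5 summits counted at RD regions came to 64.0% by any overlap and 72.0% within 500 bp, and RD regions with MYF5 to 23.7 and 34.2% by the same rules. The number of RD regions was 48 without raised background. Apart from what these settings leave out or add by construction, the cause was not tested. The settings without raised background were chosen after seeing the data. The Id group was denser than the E protein group in all 3 lists also at a −log10 q of at least 10, without raised background and with 50 kb added on each side. By window, TCF3 in RD was denser than ID1 and ID2 at the stricter q (7.86 against 6.0 and 4.0 per 100 kb) and less dense without raised background (2.14 against 3.0 and 4.0). No paired analysis was possible because each group was 1 library. Total reads per library are not given in the sources used here, so what an unlisted region shows is limited.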

Other observations

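The 50 kb on either side of each window were not part of the comparisons. They added 17 RH18 regions, 10 RD regions and 5 MYF5 peaks at ID1, more than at any other gene in each list. With its flanks ID1 had 16.5 RH18 regions, 9.50 RD regions and 6.50 MYF5 peaks per 100 kb. The ID1 window alone had 16.0, 9.0 and 8.0, so its acetylated density was not limited to the window. At ID3 the flanks added 7 RD and 4 RH18 regions and no MYF5 peak, and at ID2 3 RH18 regions, 2 MYF5 peaks and no RD region. The flanks of the 3 E protein windows together held few entries: 2 RD regions, at TCF4, 2 RH18 regions at TCF3, 1 at TCF4 and 1 at TCF12, and 1 MYF5 peak at TCF12. At ID4 they held 1 RH18 region.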
